A study of Mus musculus with 9 samples.

Results

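The enzymes of the citric acid cycle were followed in dystrophic mouse quadriceps through 9 genes, Cs, Idh3a, Idh3b, Idh3g, Ogdh, Suclg1, Sdha, Fh1 and Mdh2, taken from the 30120 genes that the array names through a transcript cluster of a single gene symbol. A transcript cluster is the set of probes that the array design assigns to one locus. Each of the 9 genes was found and had 1 such cluster, so no member was lost and none needed a choice between clusters. The genes were listed by their place in the cycle.

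RNA came from quadriceps of 9 mice, 3 per group, at 8 weeks of age, and each mouse was hybridised to its own Clariom D array without pooling. All 3 groups carried the mdx mutation, which removes dystrophin, and MR flox/flox, a floxed gene for the mineralocorticoid receptor (MR), on a mixed C57BL6/C57BL10 strain. The Cre-/mdx controls (Cre -/- MR flox/flox;mdx) had no Cre transgene and therefore kept MR. In MCK-MRcko/mdx (MCK-Cre +/- MR flox/flox;mdx), Cre is driven by the muscle creatine kinase promoter and deletes MR in myofibers. In LysM-MRcko/mdx (LysM-Cre +/- MR flox/flox;mdx), Cre is expressed from the lysozyme gene and deletes MR in myeloid cells, which include macrophages and neutrophils. The controls and the LysM-MRcko/mdx mice were 2 males and 1 female per group, and the MCK-MRcko/mdx mice 1 male and 2 females. Values are log2 signals, so that a difference of 1 is 2-fold.

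In the cycle, citrate synthase joins acetyl-CoA to oxaloacetate, and the citrate formed is oxidised in steps that return oxaloacetate and pass electrons to the respiratory chain. All its enzymes lie in mitochondria and are encoded by nuclear genes. Working muscle fibers, above all the oxidative ones, are rich in them, and citrate synthase activity is widely used as a measure of mitochondrial content. In RNA of whole muscle, fewer cells of a type and less RNA per cell cannot be told apart.

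The arrays correlated with each other at 0.982 to 0.994 and had medians of 4.70 to 4.78. Genes of the X and Y chromosomes matched the labelled sex on 9 of 9 arrays. Nr3c2, which encodes MR, had log2 signals of 6.89, 7.12 and 7.06 in Cre-/mdx, 6.74, 6.81 and 6.87 in MCK-MRcko/mdx, and 6.89, 6.89 and 6.96 in LysM-MRcko/mdx. The MCK-MRcko/mdx arrays thus lay below all controls by a small margin (difference -0.22, SE 0.07), and the LysM-MRcko/mdx arrays overlapped the controls. Of 8 mature fast fiber markers, 7 were within 1 log2 unit of the top of the scale on all 9 arrays, as skeletal muscle would give. Acta1, Myh4, Tnnt3 and Atp2a1 were at the top itself, 19.93, on all arrays and cannot show a change, while Ckm ranged from 19.12 to 19.54. The remaining marker of the 8, Myh2, is described with the other cell type markers. Both knockouts are set against the same 3 control arrays, so their differences from the controls are not independent of each other.

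One control array stood apart for these genes. Cre-/mdx replicate 2, the only female control, held the highest value of all 9 arrays for 8 of the 9 enzymes, while Idh3g was highest in Cre-/mdx replicate 3. Among 5668 clusters whose mean signal lay in the members' range (9.19 to 15.92), this array was the highest for 12.3%. The median of the 9 enzymes against their control means was 0.43 in this array, -0.22 in replicate 1 and -0.27 in replicate 3. The differences of the 9 enzymes from the controls are therefore given with and without it.

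**Figure D1:**
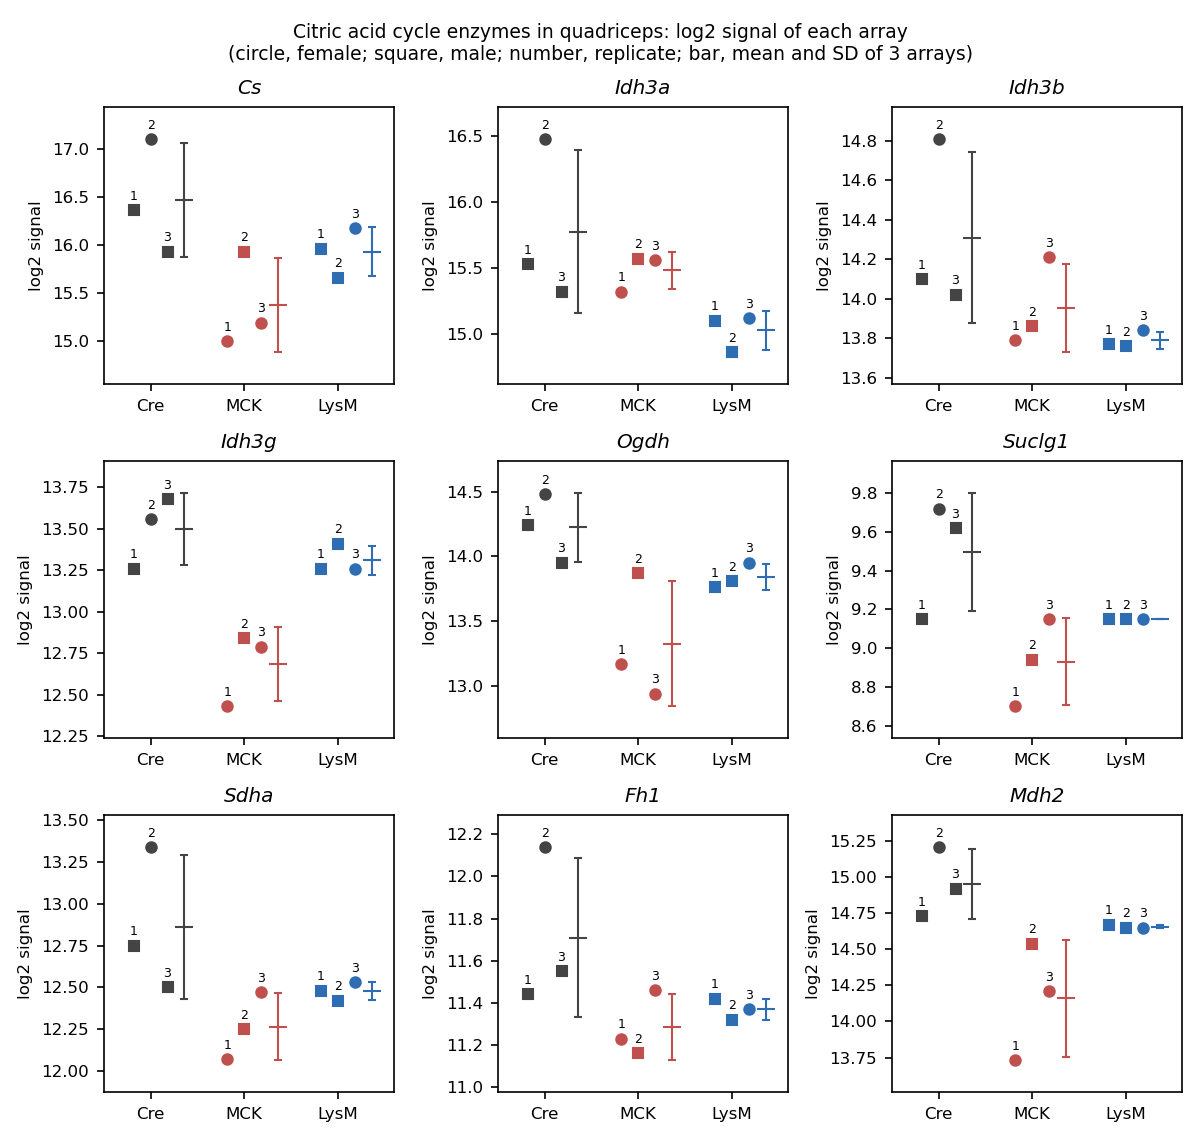
Log2 signal of the 9 citric acid cycle enzymes (vertical axis) on each of the 9 arrays, by group. Points are single mice (circle, female; square, male; number, replicate), and bars are the mean and SD of 3 arrays. Cre-/mdx replicate 2 is the highest point for 8 of the 9 enzymes, and the LysM-MRcko/mdx points lie close together.

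Promoters are shown for the letters that the 9 genes do or do not share near their starts. RefSeq promoter windows (GRCm38.p6, 250 bases before to 50 after a transcription start) matched 8 of the 9 genes with 13 promoters. No window matched Idh3a. The windows below run from 120 bases before the start and 10 bases from it on, 5′ to 3′ in the direction of the gene, and capitals mark the motifs found. In Cs they are GC boxes (GGGCGGG or its reverse complement), and in Idh3b and Idh3g the ETS site bound by GABP, a factor of many mitochondrial genes (CCGGAAG or its reverse complement).
Cs, chr10:128337607-128337736, plus strand: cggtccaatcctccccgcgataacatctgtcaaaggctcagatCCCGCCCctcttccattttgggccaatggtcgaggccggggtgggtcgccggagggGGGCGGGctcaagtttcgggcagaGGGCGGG
Idh3b, chr2:130284442-130284571, minus strand: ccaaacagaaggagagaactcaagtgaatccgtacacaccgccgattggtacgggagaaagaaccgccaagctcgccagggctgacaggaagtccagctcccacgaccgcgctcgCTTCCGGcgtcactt
Idh3g, chrX:73786888-73787017, minus strand: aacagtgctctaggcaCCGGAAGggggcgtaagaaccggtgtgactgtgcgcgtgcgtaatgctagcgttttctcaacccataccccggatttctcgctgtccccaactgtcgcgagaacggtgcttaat

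Of 6 motifs searched on both strands, the GC box was in 6 of the 13 member promoters (of Cs, Fh1, Mdh2 and Ogdh, which has several) and in 25.57% of all 32851 promoters of the same length. The ETS site was in 2 of the 13 (Idh3b and Idh3g) and in 8.86% of all promoters. Ogdh alone held the core of the NRF1 site (GCATGCG, 2 of 13 against 3.58% of all promoters), whose matches on the opposite strands overlap, and an E box (CACGTG, 3 of 13 against 7.15%). Suclg1 held AGAACA, the element that steroid receptors such as MR bind as a repeat, which was in 1 of 13 and in 18.97% of all promoters. Its inverted repeat at a spacing of 3 bases, the full receptor site, was in 0 member promoters and 0.01% of all. The estrogen-related receptor site TCAAGGTCA was in 0 member promoters and 0.42% of all. Several Ogdh windows overlap. Its GC box is 1 site that was counted in each window covering it, and so is its NRF1 core. Of its 3 promoters with an E box, 2 share a site. The counts for Ogdh are thus of promoters and not of separate sites. These are matches of letters in short windows, and no motif was shared by all members.

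In MCK-MRcko/mdx quadriceps, each of the 9 enzymes had a lower mean than in Cre-/mdx, by 0.29 to 1.09 on the log2 scale, with a median difference of -0.60. Cs, the enzyme that opens the cycle, was 47.0% of the control level and was the member called, by a difference of at least 2-fold with an unadjusted p under 0.05 in limma. Calls of this kind in the lower direction were made for 0.0944% of all clusters. Unadjusted p was under 0.05 for 6 enzymes (Cs, Idh3g, Ogdh, Suclg1, Sdha and Mdh2), all lower, against 2.52% of all clusters. The 3 knockout arrays lay wholly below the 3 controls for 4 enzymes (Idh3g, Ogdh, Sdha and Mdh2), against 2.81% of all clusters. The median difference was 0.00 over all clusters and 0.09 over those in the members' range of signal, 39.5% of which were negative. In that range 0.741% of clusters were called lower, 4.29% had an unadjusted p under 0.05 in the lower direction and 3.39% lay wholly lower. The 9 enzymes were chosen with earlier results of these data known. Their counts beside these shares are therefore descriptions and no test.

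In LysM-MRcko/mdx quadriceps the 9 enzymes were again all below the controls in their means, by 0.19 to 0.75, with a median of -0.38. No enzyme was called, where 0.142% of all clusters were called lower. Unadjusted limma p was under 0.05 for 2 enzymes, Idh3a and Idh3b, against 3.35% of all clusters in the lower direction. The knockout arrays lay wholly below the controls for 4 enzymes (Idh3a, Idh3b, Fh1 and Mdh2), against 4.44% of all clusters. The median was 0.00 over all clusters and -0.02 over those in the members' range, 51.9% of which were negative. In that range 0.847% of clusters were called lower, 8.61% had an unadjusted p under 0.05 in the lower direction and 9.76% lay wholly lower. Here too the counts describe genes that were chosen with earlier results known.

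No member held up after adjustment over all 65672 clusters. Adjusted p ranged from 0.84 to 0.87 in MCK-MRcko/mdx and from 0.78 to 0.83 in LysM-MRcko/mdx (limma, Benjamini-Hochberg). No cluster of the array passed an adjusted p of 0.05 in any contrast by limma, where 3640 and 4069 clusters had an unadjusted p under 0.05 against the controls. The exact permutation test of 3 against 3 arrays cannot give a two-sided p below 0.1.

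**Figure D2:**
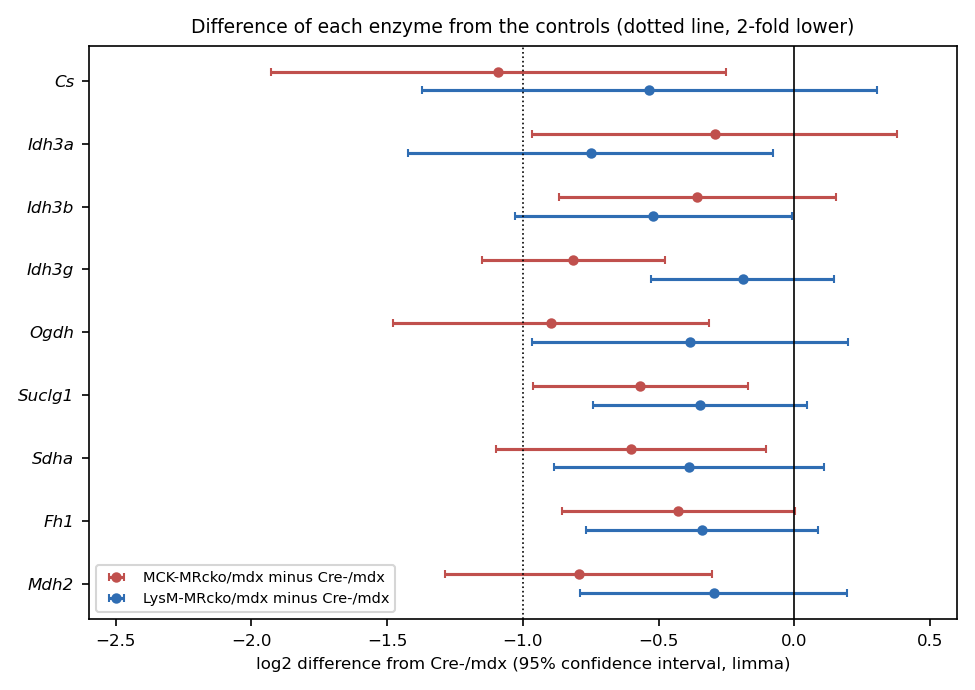
Log2 difference of each enzyme from Cre-/mdx (horizontal axis) with its 95% confidence interval from limma, for MCK-MRcko/mdx (red) and LysM-MRcko/mdx (blue). All points lie to the left of 0, and the Cs point of MCK-MRcko/mdx lies past the dotted line at 2-fold lower.

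Cs encodes citrate synthase. Its log2 signal was 16.36, 17.10 and 15.93 in Cre-/mdx, 15.00, 15.93 and 15.19 in MCK-MRcko/mdx, and 15.96, 15.66 and 16.17 in LysM-MRcko/mdx. MCK-MRcko/mdx replicate 2 reached the lowest control, so that these groups met at 15.93, and the LysM-MRcko/mdx arrays overlapped the controls. The MCK-MRcko/mdx difference was -1.09 (SE 0.35, 95% interval -1.93 to -0.25, unadjusted limma p = 0.018, exact permutation p = 0.2). Without Cre-/mdx replicate 2 it was -0.77, and Cs was no longer called. The LysM-MRcko/mdx difference was -0.53 (interval -1.37 to 0.31), and -0.22 without that array.

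Idh3a, Idh3b and Idh3g encode the subunits of the NAD-dependent isocitrate dehydrogenase, Idh3a the catalytic one and the others its regulatory partners. Idh3g was 13.26, 13.56 and 13.68 in Cre-/mdx, 12.43, 12.84 and 12.79 in MCK-MRcko/mdx, and 13.26, 13.41 and 13.26 in LysM-MRcko/mdx. All MCK-MRcko/mdx arrays were below all arrays of both other groups. The difference from the controls was -0.81 (SE 0.14, interval -1.15 to -0.47, limma p = 7.47e-04, exact permutation p = 0.1), and -0.78 without Cre-/mdx replicate 2. It had the lowest p of the 9 enzymes and was 56.9% of the control level, short of the 2-fold rule. In LysM-MRcko/mdx the difference of Idh3g was -0.19 (interval -0.53 to 0.15), and -0.16 without that array.

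Idh3a was 15.53, 16.48 and 15.32 in Cre-/mdx, 15.32, 15.57 and 15.56 in MCK-MRcko/mdx, and 15.10, 14.86 and 15.12 in LysM-MRcko/mdx. Here the order of the knockouts turned, with all LysM-MRcko/mdx arrays below all arrays of both other groups. The LysM-MRcko/mdx difference was -0.75 (SE 0.28, interval -1.42 to -0.08, limma p = 0.034, exact permutation p = 0.1), which is 59.5% of the control level, and -0.40 without Cre-/mdx replicate 2. The MCK-MRcko/mdx difference of -0.29 (interval -0.97 to 0.38) changed sign without that control, to 0.06.

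Idh3b was 14.10, 14.81 and 14.02 in Cre-/mdx, 13.79, 13.86 and 14.21 in MCK-MRcko/mdx, and 13.77, 13.76 and 13.84 in LysM-MRcko/mdx. The LysM-MRcko/mdx arrays were again all below the controls, by -0.52 (SE 0.22, interval -1.03 to -0.01, limma p = 0.047, exact permutation p = 0.1). Without Cre-/mdx replicate 2 this was -0.27, with an unadjusted limma p above 0.05. MCK-MRcko/mdx replicate 3 was above the lowest control, and the difference was -0.36 (interval -0.87 to 0.15), or -0.11 without Cre-/mdx replicate 2.

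The pair of Idh3a and Idh3g was set side by side after their values were seen, so the separation is a description with no test. Idh3a minus Idh3g within an array, whose absolute size depends on the probes and is not a ratio of transcripts, was 2.27, 2.92 and 1.64 in Cre-/mdx. It was 2.89, 2.73 and 2.77 in MCK-MRcko/mdx and 1.84, 1.45 and 1.86 in LysM-MRcko/mdx. The knockouts did not overlap, with LysM-MRcko/mdx lower by 1.08 on the log2 scale, and the controls spanned the gap between them. Idh3b minus Idh3g likewise separated the knockouts (mean 0.48 in LysM-MRcko/mdx against 1.27 in MCK-MRcko/mdx). This comparison does not involve the control arrays.

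Ogdh encodes the substrate-binding component of the alpha-ketoglutarate dehydrogenase complex. Its signal was 14.24, 14.48 and 13.95 in Cre-/mdx, 13.17, 13.87 and 12.94 in MCK-MRcko/mdx, and 13.76, 13.81 and 13.95 in LysM-MRcko/mdx. The MCK-MRcko/mdx arrays were below the controls but spread widely, with replicate 2 near the lowest control. Their difference was -0.90 (SE 0.25, interval -1.48 to -0.31, limma p = 0.0082, exact permutation p = 0.1), or 53.7% of the control level, and -0.77 without Cre-/mdx replicate 2. The LysM-MRcko/mdx difference was -0.38 (interval -0.97 to 0.20), and -0.26 without that array.

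Suclg1 encodes the subunit that both forms of succinyl-CoA ligase share. It was the dimmest member, at 9.15, 9.72 and 9.62 in Cre-/mdx, 8.70, 8.94 and 9.15 in MCK-MRcko/mdx, and 9.15 on each LysM-MRcko/mdx array. One value, 9.15, was thus given for 5 arrays, which the groups share, and an SD of 0 in LysM-MRcko/mdx is no measure of the mice. Such repeated values on 5 or more arrays were seen for 5.96% of clusters in the members' range and 23.3% of all clusters. The MCK-MRcko/mdx difference was -0.57 (SE 0.17, limma p = 0.012, exact permutation p = 0.2) and the LysM-MRcko/mdx difference -0.35 (interval -0.74 to 0.05). Without Cre-/mdx replicate 2 they were -0.46 and -0.24.

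Sdha encodes the flavoprotein of succinate dehydrogenase, which is also a complex of the respiratory chain. It was 12.75, 13.34 and 12.50 in Cre-/mdx, 12.07, 12.25 and 12.47 in MCK-MRcko/mdx, and 12.48, 12.42 and 12.53 in LysM-MRcko/mdx. The MCK-MRcko/mdx arrays were all below the controls by a narrow margin, and LysM-MRcko/mdx replicate 3 was above the lowest control. The differences were -0.60 (SE 0.21, limma p = 0.025, exact permutation p = 0.1) and -0.39 (interval -0.88 to 0.11). Without Cre-/mdx replicate 2 they were -0.36 and -0.15.

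Fh1 encodes fumarase. Its signal was 11.44, 12.14 and 11.55 in Cre-/mdx, 11.23, 11.16 and 11.46 in MCK-MRcko/mdx, and 11.42, 11.32 and 11.37 in LysM-MRcko/mdx. The differences were -0.43 (interval -0.85 to 0.00) and -0.34 (interval -0.77 to 0.09), and they were -0.21 and -0.12 without Cre-/mdx replicate 2. The LysM-MRcko/mdx arrays were all below the controls, although narrowly.

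Mdh2, mitochondrial malate dehydrogenase, closes the cycle. It was 14.73, 15.21 and 14.92 in Cre-/mdx, 13.73, 14.54 and 14.21 in MCK-MRcko/mdx, and 14.67, 14.65 and 14.65 in LysM-MRcko/mdx. The 3 groups did not overlap, with the controls highest and MCK-MRcko/mdx lowest. The MCK-MRcko/mdx difference was -0.79 (SE 0.21, interval -1.29 to -0.30, limma p = 0.0066, exact permutation p = 0.1), or 57.7% of the control level, and -0.67 without Cre-/mdx replicate 2. The LysM-MRcko/mdx difference was -0.30 (interval -0.79 to 0.20), and -0.17 without that array.

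Set against each other, the knockouts differed most in Idh3g. For 7 enzymes the mean was higher in LysM-MRcko/mdx than in MCK-MRcko/mdx, and for Idh3a and Idh3b it was lower. Idh3g was higher by 0.62 (SE 0.14, interval 0.28 to 0.96, limma p = 0.0033, adjusted p = 0.53, exact permutation p = 0.1), which is 1.54-fold. Mdh2 was higher by 0.50 (interval 0.00 to 0.99, limma p = 0.048, adjusted p = 0.70, exact permutation p = 0.1), which is 1.41-fold. These were the 2 members with an unadjusted p under 0.05, against 7.12% of all clusters and 18.6% of those in the members' range of signal in either direction. Taken in either direction, the count of members is thus near that of clusters of like signal. Both members were higher, and of the 5668 clusters in that range, 249 had such a p in the higher direction and 807 in the lower. This split by direction is a description and does not change that reading of the count. Idh3g and Mdh2 were also the 2 members whose LysM-MRcko/mdx arrays lay wholly above those of MCK-MRcko/mdx. Of all clusters 3.72% did so, and of those in the members' range 5.31%. Idh3a was wholly lower, by -0.46 (interval -1.13 to 0.22). No enzyme was called, against 0.429% of all clusters and 2.89% of those in their range. Cs (0.56, interval -0.28 to 1.40) and Ogdh (0.51, interval -0.07 to 1.10) had differences of like size that did not pass. The median of the 9 was 0.22, beside -0.12 over clusters in their range of signal.

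**Figure D3:**
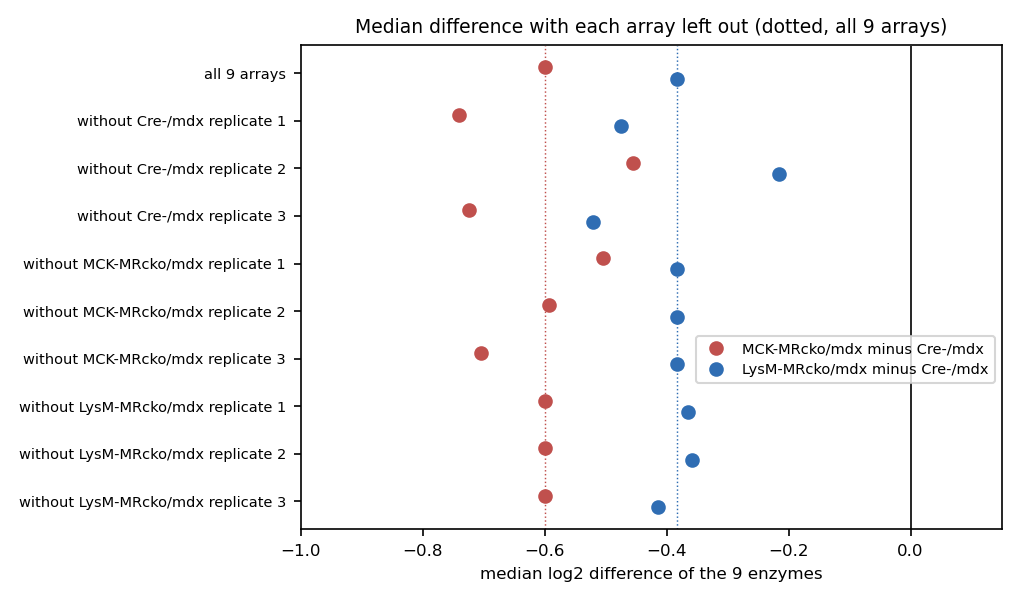
Median log2 difference of the 9 enzymes from Cre-/mdx (horizontal axis) with each array left out in turn, for MCK-MRcko/mdx (red) and LysM-MRcko/mdx (blue). The dotted lines mark the medians with all 9 arrays, -0.60 and -0.38, and without Cre-/mdx replicate 2 they are -0.46 and -0.22.

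Each control array in turn was left out. The MCK-MRcko/mdx median was -0.74 without replicate 1, -0.46 without replicate 2 and -0.72 without replicate 3. The LysM-MRcko/mdx medians were -0.48, -0.22 and -0.52. Without replicate 2, 8 of 9 enzymes remained negative in MCK-MRcko/mdx and 9 in LysM-MRcko/mdx, and 5 and 1 had an unadjusted limma p under 0.05. Those 5 were Idh3g, Ogdh, Suclg1, Sdha and Mdh2, and the 1 was Idh3a. On each of the 6 knockout arrays, 0 of the 9 enzymes were above the mean of all 3 controls. Against the mean of replicates 1 and 3 alone, 4 of these 54 values were above it, Idh3a on MCK-MRcko/mdx replicates 2 and 3, Idh3b on MCK-MRcko/mdx replicate 3 and Cs on LysM-MRcko/mdx replicate 3.

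Sex could be separated from genotype in part. In males alone, with 1 MCK-MRcko/mdx array against 2 controls, the median of the 9 enzymes was -0.28 for MCK-MRcko/mdx and -0.24 for LysM-MRcko/mdx. In females alone it was -1.04 and -0.77, but the only female control is Cre-/mdx replicate 2. The difference of Cs in MCK-MRcko/mdx was -0.22 in males and -2.01 in females. Sex as a covariate in all 9 arrays gave medians of -0.69 and -0.38. The parts of sex and of this single array in the difference cannot be told apart.

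The enzymes varied least among LysM-MRcko/mdx mice. The median SD of the 9 was 0.376 in Cre-/mdx, 0.225 in MCK-MRcko/mdx and 0.055 in LysM-MRcko/mdx, where clusters in the members' range had 0.330, 0.285 and 0.185. LysM-MRcko/mdx was the tightest group for 8 members and for 51.6% of those clusters. Repeated values enter these SDs. In LysM-MRcko/mdx, Suclg1 was 9.15 on each array, Idh3g 13.26 on replicates 1 and 3, and Mdh2 14.65 on replicates 2 and 3. A small SD there need not measure the mice. No test was made of these spreads. Among the arrays, MCK-MRcko/mdx replicate 1 was the lowest for 5 of the 9 enzymes.

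The members lay high on the scale but not at its end. Their means were at the 89.9th (Suclg1) to the 98.6th (Cs) percentile of all clusters. The highest signal on the arrays was 19.93, where 241 clusters stayed within 1 log2 unit on all arrays. Of the 9 enzymes, 0 had any array within 0.5, 1 or 2 log2 units of the top, and the closest, Cs, stayed 2.83 below it.

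Of 9 other genes of cycle enzymes measured, 9 were lower in MCK-MRcko/mdx and 8 in LysM-MRcko/mdx. Their medians were -0.43 in MCK-MRcko/mdx and -0.55 in LysM-MRcko/mdx, and 0 were called. Unadjusted limma p was under 0.05, lower, for 1 of these in MCK-MRcko/mdx (Sucla2) and 2 in LysM-MRcko/mdx (Sucla2 and Dld). Of all clusters, 2.52% and 3.35% had such a p. Sucla2, the ADP-forming partner of Suclg1, was 14.47, 14.89 and 14.49 in Cre-/mdx, 14.12, 13.81 and 14.44 in MCK-MRcko/mdx and 13.74, 14.12 and 13.89 in LysM-MRcko/mdx. All 6 knockout arrays were below the controls, by -0.49 and -0.70 (limma p = 0.038 and 0.0084, exact permutation p = 0.1 for both), or -0.36 and -0.56 without Cre-/mdx replicate 2. Dld, the dihydrolipoyl dehydrogenase that serves Ogdh and pyruvate dehydrogenase alike, differed by -0.47 and -0.86 (limma p = 0.023 in LysM-MRcko/mdx, exact permutation p = 0.1), or -0.15 and -0.54 without that array. The 4 assembly factors of succinate dehydrogenase had medians near 0, -0.04 and -0.11, and the largest difference among them was -0.34 for Sdhaf4 in LysM-MRcko/mdx.

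Around the cycle, the pyruvate entry genes, which make acetyl-CoA from pyruvate or control that step, had medians of -0.49 and -0.44 over 12 of 13 genes (without Mpc2). Pdk2, a kinase that switches pyruvate dehydrogenase off, was called lower in MCK-MRcko/mdx, at 12.42, 13.63 and 12.02 against 13.68, 14.40 and 14.01 in Cre-/mdx (difference -1.34, interval -2.29 to -0.39, limma p = 0.013, exact permutation p = 0.1). The value of 13.63 came from the only male of that group. The Pdk2 call held with each array left out in turn (-1.81 to -1.005). It was lost with a plain equal-variance test. In male mice only, with 1 MCK-MRcko/mdx array, the difference was -0.215. In female mice only, with 1 control array, it was -2.18. In LysM-MRcko/mdx, Pdk2 differed by -0.23 from all 3 controls. Pdk4, a related kinase that responds to fasting, ranged from 13.96 to 17.54 over all arrays with no order by group. Got1, the cytosolic aspartate aminotransferase of the malate-aspartate shuttle, was called lower in MCK-MRcko/mdx (-1.07, limma p = 0.040, exact permutation p = 0.2). Without Cre-/mdx replicate 2 it was -0.60 and no longer called, and the call was also lost when MCK-MRcko/mdx replicate 1 (-0.80) or replicate 2 (-1.07) was left out, as it was for each LysM-MRcko/mdx array. Got1 is one of 10 genes measured of 11 of replenishing reactions and cytosolic counterparts (without Glud1), whose medians were -0.77 and -0.56. Acly and Me1, enzymes of fat synthesis, had the largest differences of this list in LysM-MRcko/mdx (-1.25 and -1.34) but were led by 12.05 and 15.47 in Cre-/mdx replicate 2, and neither passed.

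Of 5 mitochondrial carriers, with medians of -0.40 and -0.01, Slc25a12, the aspartate/glutamate carrier of the same shuttle, was called lower in LysM-MRcko/mdx. It was 14.01, 14.53 and 14.10 there and 15.76, 15.77 and 14.78 in Cre-/mdx (-1.22, interval -1.94 to -0.50, limma p = 0.0051, exact permutation p = 0.1). General markers and regulators of mitochondrial content (9 of 10 genes, without Esrra) had medians of 0.00 and -0.08. Nrf1 was 6.29 on all 9 arrays and Gabpa 9.52 on 8 of them, and such repeated values cannot show a change. The MCK-MRcko/mdx median of 0.00 is the value of Nrf1. Among the 9 genes Ppargc1a, which encodes the coactivator PGC-1alpha of mitochondrial genes, was called lower in both knockouts (-1.14 and -1.22, limma p = 0.042 and 0.033, exact permutation p = 0.2 for both). Its control values were 12.01, 11.12 and 10.13, a wide spread. Without Cre-/mdx replicate 1 the differences were -0.68 and -0.76, without replicate 2 they were -1.12 and -1.20, and both calls were lost either way. The MCK-MRcko/mdx call was lost with any other array but Cre-/mdx replicate 3 left out (-1.23 to -0.97), and the LysM-MRcko/mdx call also without LysM-MRcko/mdx replicate 1 (-1.07) or 3 (-1.17). The outer-membrane channel gene Vdac1 differed by -0.59 and -0.50 (limma p = 0.032 and 0.058, exact permutation p = 0.1 for both), or -0.34 and -0.24 without Cre-/mdx replicate 2.

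**Figure D4:**
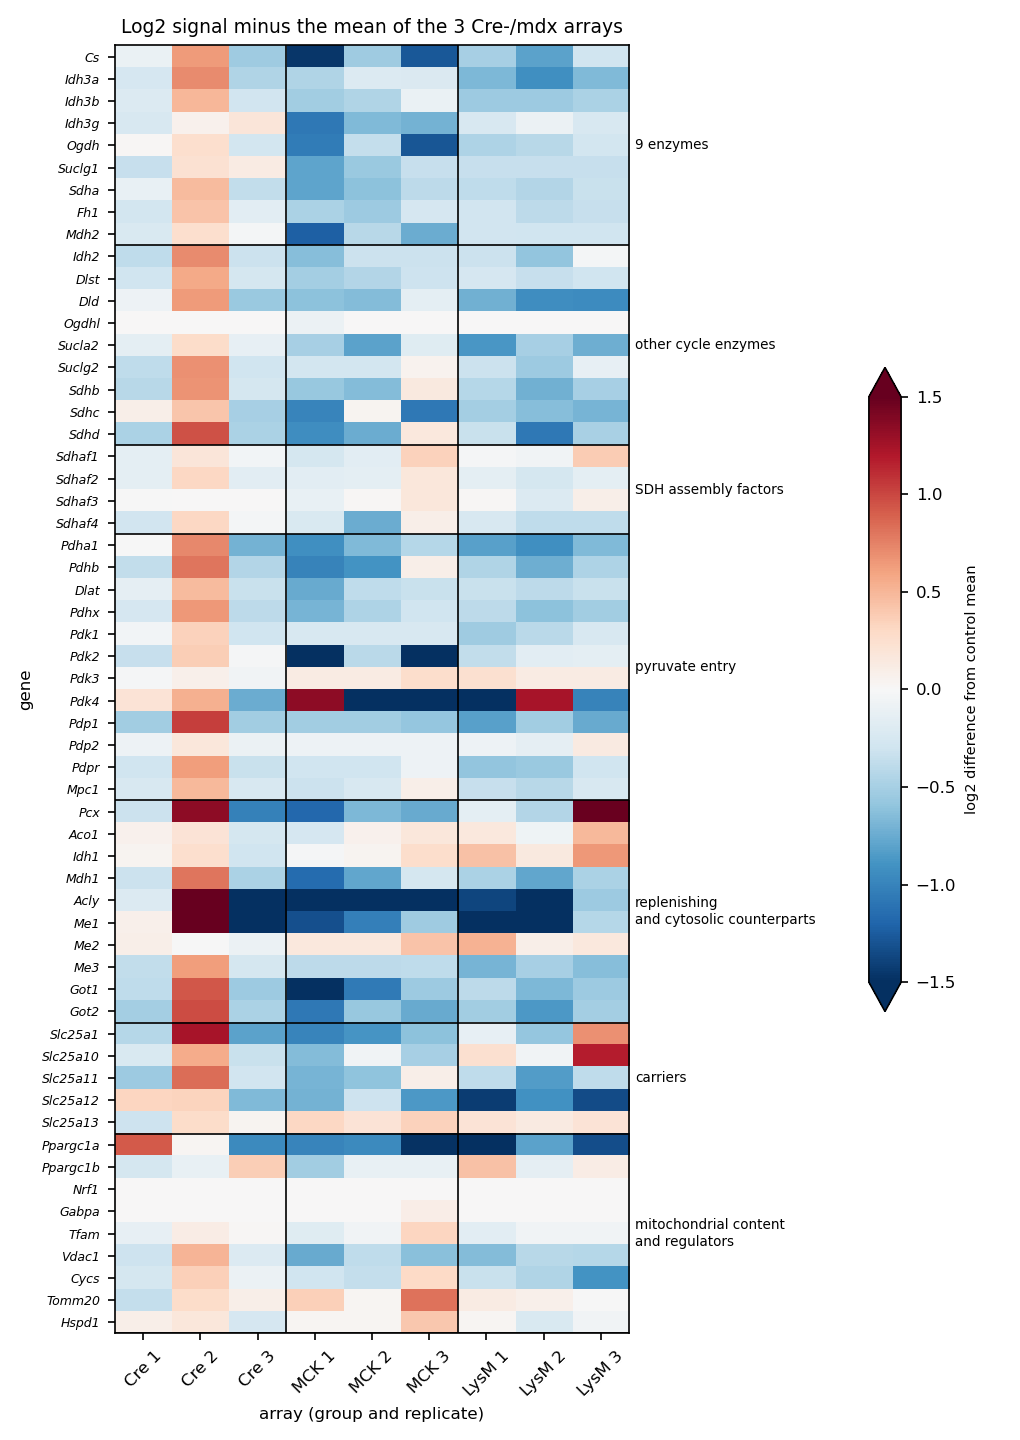
Log2 signal minus the mean of the 3 Cre-/mdx arrays for the 9 enzymes and the genes of 6 related lists (rows), on each array (columns). Colours run from blue (lower) to red (higher) and saturate at 1.5, and the red column of Cre-/mdx replicate 2 (Cre 2) passes through most of the lists.

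By the root mean square difference of centred values over the 9 arrays, the genes with the profile most like the mean of the members were Sox18 (0.066), an endothelial transcription factor, and Egln1 (0.085), an oxygen-sensing prolyl hydroxylase. Dlat (0.095), a pyruvate dehydrogenase component, Dele1 (0.104), a mitochondrial stress protein, and Ndufv1 (0.108), a subunit of respiratory complex I, followed. Among the members, Sdha was closest to their mean (0.105) and Idh3a farthest from it (0.317).

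Markers of other cell types also moved with the groups. All 10 macrophage markers were measured, and 6 were called higher in MCK-MRcko/mdx and 7 in LysM-MRcko/mdx. Of all 65672 clusters, 149 and 154 were called higher. Lyz2 went the other way in LysM-MRcko/mdx, by -0.10 from the controls. It was called lower there than in MCK-MRcko/mdx (-1.05), as was Msr1 (-1.31). The mean level of the 10 markers was 11.90 to 12.53 in Cre-/mdx, 13.39 to 13.41 in MCK-MRcko/mdx and 13.23 to 13.88 in LysM-MRcko/mdx. Of 6 endothelial markers, 5 had an unadjusted limma p under 0.05 in the lower direction in MCK-MRcko/mdx and 1 in LysM-MRcko/mdx. This held for 2.52% and 3.35% of all clusters. Cdh5 was the endothelial marker called, lower in MCK-MRcko/mdx (-1.13). The medians of the endothelial markers were -0.74 and -0.41. Their mean levels were 10.58 to 10.97, 9.59 to 10.58 and 10.09 to 10.47 in the same order of groups. Of 6 regenerating fiber markers, 2 were called higher in LysM-MRcko/mdx (median 1.20), with mean levels of 10.30 to 10.95, 10.19 to 11.16 and 11.15 to 12.62. The 5 adipocyte markers, at 8.94 to 10.99, 9.15 to 9.74 and 9.74 to 11.15, had their highest control level in Cre-/mdx replicate 2 (10.99). Myh2, the myosin of oxidative fast fibers and the fast fiber marker below the top of the scale, was 18.07, 18.67 and 17.46 in Cre-/mdx, 17.45, 16.98 and 17.49 in MCK-MRcko/mdx, and 17.46, 16.99 and 17.51 in LysM-MRcko/mdx. Like most of the enzymes it was highest in Cre-/mdx replicate 2, and it differed from the controls by -0.76 and -0.75 (limma p = 0.048 and 0.051, exact permutation p = 0.2 and 0.3). The 7 slow fiber markers had medians of 0.16 and 0.35, and mean levels of 8.32 to 9.03, 8.27 to 9.47 and 8.61 to 9.56. Of these, Tnni1 was called higher in LysM-MRcko/mdx (1.57). Fibroblast markers (5 of 6, without Pdgfra) had medians of 0.20 and 0.69. Their mean levels were 15.08 to 16.27, 15.93 to 16.35 and 16.27 to 16.55. Postn was the fibroblast marker called, higher in LysM-MRcko/mdx (1.89). The part of these cell types and fiber types in the differences of the cycle enzymes was not tested.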

How the data were processed

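Quadriceps RNA of 9 mice (RNA integrity numbers above 7 per the methods) was amplified and hybridised to 1 Affymetrix GeneChip Clariom D mouse array each. The deposited values are log2 signals per transcript cluster, which the authors obtained by gene-level SST-RMA in Expression Console, that is, after background correction and quantile normalization of the probes. Their comparisons used Transcriptome Analysis Console. Signals near the top of the scale cannot show differences, and some clusters carry one value on several arrays. Versions and the genome build of the clusters are not given in the sources used here. The table holds 65672 clusters, of which 30450 have 1 gene symbol, 2151 several and 33071 none by the platform annotation, with symbols updated through RefSeq gene IDs. Only clusters with 1 symbol named a gene, and the one with the highest mean over the 9 arrays stood for it.

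In R 4.3.3, limma 3.58.1 (lmFit, contrasts.fit, eBayes) estimated the mean of each group from the 9 arrays together, after a test on simulated data. To be called, a cluster had to differ at least 2-fold with p under 0.05 before adjustment. Adjusted p follows Benjamini-Hochberg over all clusters. Exact permutation tests were two-sided. No filter, pseudocount or further normalization was used. Arrays have no depth, and 3 per group limit the precision. The arrays are labelled as biological replicates.

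The members and the gene lists were chosen with earlier results of these data known. From each list, the genes with the largest differences and any called were named, and the genes most like the members by profile. Promoter sequences are from RefSeq. Alternatives covered the fit, the group averages, a replicate block, sex, normalization, a filter on low signals, the choice of cluster and each array left out.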

Additional observations from a re-analysis of the deposited data

How the results depend on the processing

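Of the comparisons with the controls, the MCK-MRcko/mdx median of the 9 enzymes stayed negative under all 22 alternatives (-1.04 to -0.28), as did the LysM-MRcko/mdx median (-0.77 to -0.22). The count of enzymes called in MCK-MRcko/mdx, 1 with all arrays, was 0 with a plain equal-variance test and 3 after quantile normalization. Leaving out 1 array gave 0 to 2. The count was 0 if the array left out was control 2 or MCK-MRcko/mdx 1 or 3, and 2 if it was control 3 or MCK-MRcko/mdx 2. The call of Cs was lost under 6 alternatives. In male mice only, the MCK-MRcko/mdx median was -0.28 and the count 0. In female mice only, the medians were -1.04 for MCK-MRcko/mdx and -0.77 for LysM-MRcko/mdx, and the counts 2 and 1, with 1 between the knockouts. Both comparisons with the controls rest on 1 female control, and both with LysM-MRcko/mdx on 1 female array of it, and a lone array was assumed to vary like the other groups.

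The sign of Idh3a in MCK-MRcko/mdx turned to 0.12 with Tukey biweight averages, 0.14 in male mice only and 0.058 without Cre-/mdx replicate 2 (-0.52 to 0.058 over all single arrays left out). Between the knockouts, Cs turned to -0.12 and Ogdh to -0.085 in male mice only, and Idh3b to 0.054 after quantile normalization. Pdk4 in LysM-MRcko/mdx turned to 0.12 without LysM-MRcko/mdx replicate 1 (lowest -1.5 without replicate 2). The cause of these changes was not tested.

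Deviations of same-numbered arrays from their group means correlated at -0.23 to 0.16, and those of differently numbered arrays at -0.35 to 0.33. With 3 arrays per group, these values cannot settle whether same-numbered samples shared a step. With the replicate block, the MCK-MRcko/mdx median was -0.60 with 1 enzyme called and the LysM-MRcko/mdx median -0.38 with 0 called. Quantile normalization enlarged several differences in MCK-MRcko/mdx, such as Dld from -0.47 to -0.89 and Vdac1 from -0.59 to -0.97. With 3 arrays per group, the 95% intervals of Cs and Ogdh in LysM-MRcko/mdx include both 0 and differences near 2-fold.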
